A study of Rattus norvegicus with 12 samples.

Results

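The scaffolds of the postsynaptic density and the 2 main forebrain forms of its kinase CaMKII were followed in female Sprague-Dawley rats, in RNA of the prefrontal cortex. The 9 genes were Dlg1, Dlg2, Dlg3 and Dlg4, Shank1, Shank2 and Shank3, and Camk2a and Camk2b. They were taken by name: every non-control probe of the array that carried one of these gene names was used, which gave 9 of 26214 gene names and 14 of 30367 probes. All 14 were measured well enough to be tested, against 21533 of all probes.

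The study compared 3 groups of 4 animals. In the first, the dam had received betamethasone, a synthetic corticosteroid, as 2 injections of 0.4 mg/kg on gestational day 15, and the pup ketamine, a blocker of NMDA-type glutamate receptors, at 35 mg/kg on postnatal day 14 (the betamethasone-ketamine group). In the second, the dam had the same betamethasone and the pup saline (the betamethasone-saline group). In the third, dam and pup both had saline (the control group). The group descriptions place tissue collection on postnatal day 15, although another label field gives a different age. The treatment protocol speaks of rats exhibiting infantile spasms on the day of ketamine or saline, but the labels do not tell which animals did. Each animal's total RNA was read in 1 channel of an Agilent 2-colour array, with replicates 1 and 2 of a group on 1 array and replicates 3 and 4 on another.

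A chemical synapse that uses glutamate carries, beneath the receiving membrane, a dense sheet of protein called the postsynaptic density. The Dlg proteins are membrane-associated guanylate kinase homologues that hold glutamate receptors and adhesion molecules at the membrane, and the Shank proteins form a deeper layer that ties these complexes to Homer proteins and the actin cytoskeleton. CaMKII, the calcium- and calmodulin-dependent protein kinase II, is a large holoenzyme very abundant in forebrain excitatory synapses, where calcium entering through NMDA receptors activates it. In rodent cortex the first weeks after birth are the period of synapse formation, and Dlg3 (SAP102) is known as the early scaffold that Dlg4 (PSD-95) joins and largely replaces as synapses mature.

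The array reads each transcript through a probe of 60 bases, so what a value stands for depends on that stretch. Probes are named here by the position at which they start on their transcript, per the files, and coordinates are on the rn4 build. The first pair of sequences is shown because the probes of Shank1 and Shank2 come from matching stretches of 2 related transcripts. Capitals mark bases that are identical when the probes are laid over each other, which holds for 38 of 58 overlapping bases, or 65.5%.
Shank1 probe at 6532 (chr1:94839533-94839592, plus strand): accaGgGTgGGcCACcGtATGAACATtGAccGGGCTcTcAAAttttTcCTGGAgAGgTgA
Shank2 probe at 5565 (chr1:204852049-204852108, plus strand): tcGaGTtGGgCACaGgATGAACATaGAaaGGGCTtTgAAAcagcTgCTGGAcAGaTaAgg
The second pair is shown for the same reason. The probes of Dlg2 and Dlg3 overlap over 54 bases, of which 34, or 63%, are identical and in capitals.
Dlg2 probe at 2775 (chr1:149274407-149274466, plus strand): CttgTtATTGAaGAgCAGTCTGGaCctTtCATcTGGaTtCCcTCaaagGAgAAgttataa
Dlg3 probe at 2826 (chrX:88827586-88827645, plus strand): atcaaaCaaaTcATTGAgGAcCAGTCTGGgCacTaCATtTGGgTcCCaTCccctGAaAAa
The remaining 4 sequences are the probes through which Dlg4 and both CaMKII genes were read, and they carry no capitals.
Dlg4 probe at 2128 (chr10:56889685-56889744, plus strand): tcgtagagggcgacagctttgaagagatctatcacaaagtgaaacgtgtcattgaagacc
Camk2a probe at 452 (chr18:56903621-56918266, plus strand): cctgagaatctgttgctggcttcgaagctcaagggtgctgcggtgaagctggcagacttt
Camk2b probe at 1105 (chr14:86645232-86645447, minus strand): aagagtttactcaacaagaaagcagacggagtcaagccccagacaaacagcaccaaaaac
Camk2b probe at 1558 (chr14:86635462-86635521, minus strand): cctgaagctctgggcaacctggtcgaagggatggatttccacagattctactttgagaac

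The Camk2a probe covers 14646 bases of the genome with its 60 bases, and so crosses spliced-out sequence. The first Camk2b probe likewise covers 216 bases, and the Dlg1 probe at 2588 (chr11:70749687-70750611, minus strand) covers 925 bases. The other probes lie in 1 uninterrupted stretch of about their own length. Dlg3 had a second probe at 3533 (chrX:88828298-88828356). Shank1 had further probes at 5704 (chr1:94835783-94835842) and 7397 (chr1:94840398-94840457), and Shank3 had probes at 5236 (chr7:127875735-127875794) and 7270 (chr7:127877770-127877829), all on the plus strand. Exon and UTR annotation on this build was not used here.

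Between 71.4% and 81.5% of 42877 non-control spots were well above background in each sample and none was saturated. Values below are log2 intensities after normalization, and with 2 arrays per group it is the number of arrays that limits their precision. The 4 arrays of both betamethasone groups shared a slide (slide B), while the controls had a slide to themselves (slide A). In comparisons with control, the slide and the treatment therefore cannot be told apart. The scanner software fitted the signal of added RNA standards against their known amounts, with a slope of 0.873 to 0.881 on slide B, against 0.492 and 0.542 on the control arrays. Its part in those comparisons was not tested. The excitatory cortical neuron markers were present in every group: the mean log2 level of the 4 markers measured (Slc17a7, Neurod6, Tbr1 and Neurod2, while Rbfox3 was not measured) was 10.57 to 10.74 in betamethasone-ketamine, 10.55 to 10.945 in betamethasone-saline and 10.21 to 11.01 in control samples. Because whole tissue was taken, fewer cells of a type and less RNA per cell cannot be told apart in any value here.

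No probe of these 9 genes passed the test in any comparison. Each was tested with limma across all tested probes, with Benjamini-Hochberg adjustment and a threshold of 0.05. Betamethasone-saline against control gave 0 of 14 probes, where 46 of 21533 probes passed in all (0.214%), ketamine against saline after betamethasone gave 0 of 14, where no probe passed in all (0%), and betamethasone-ketamine against control gave 0 of 14, where 17 passed in all (0.0789%). At an unadjusted p under 0.05 the counts were 3 of 14 probes in betamethasone-saline against control (11.4% of all probes), 0 of 14 in ketamine against saline (3.16%) and 2 of 14 in betamethasone-ketamine against control (13.9%). The 3 were both Dlg3 probes and the Shank3 probe at 7270, and the 2 were both Dlg3 probes, so probes of the same gene were counted separately. The probe farthest from its control level relative to its error was the second probe of Dlg3.

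**Figure D1:**
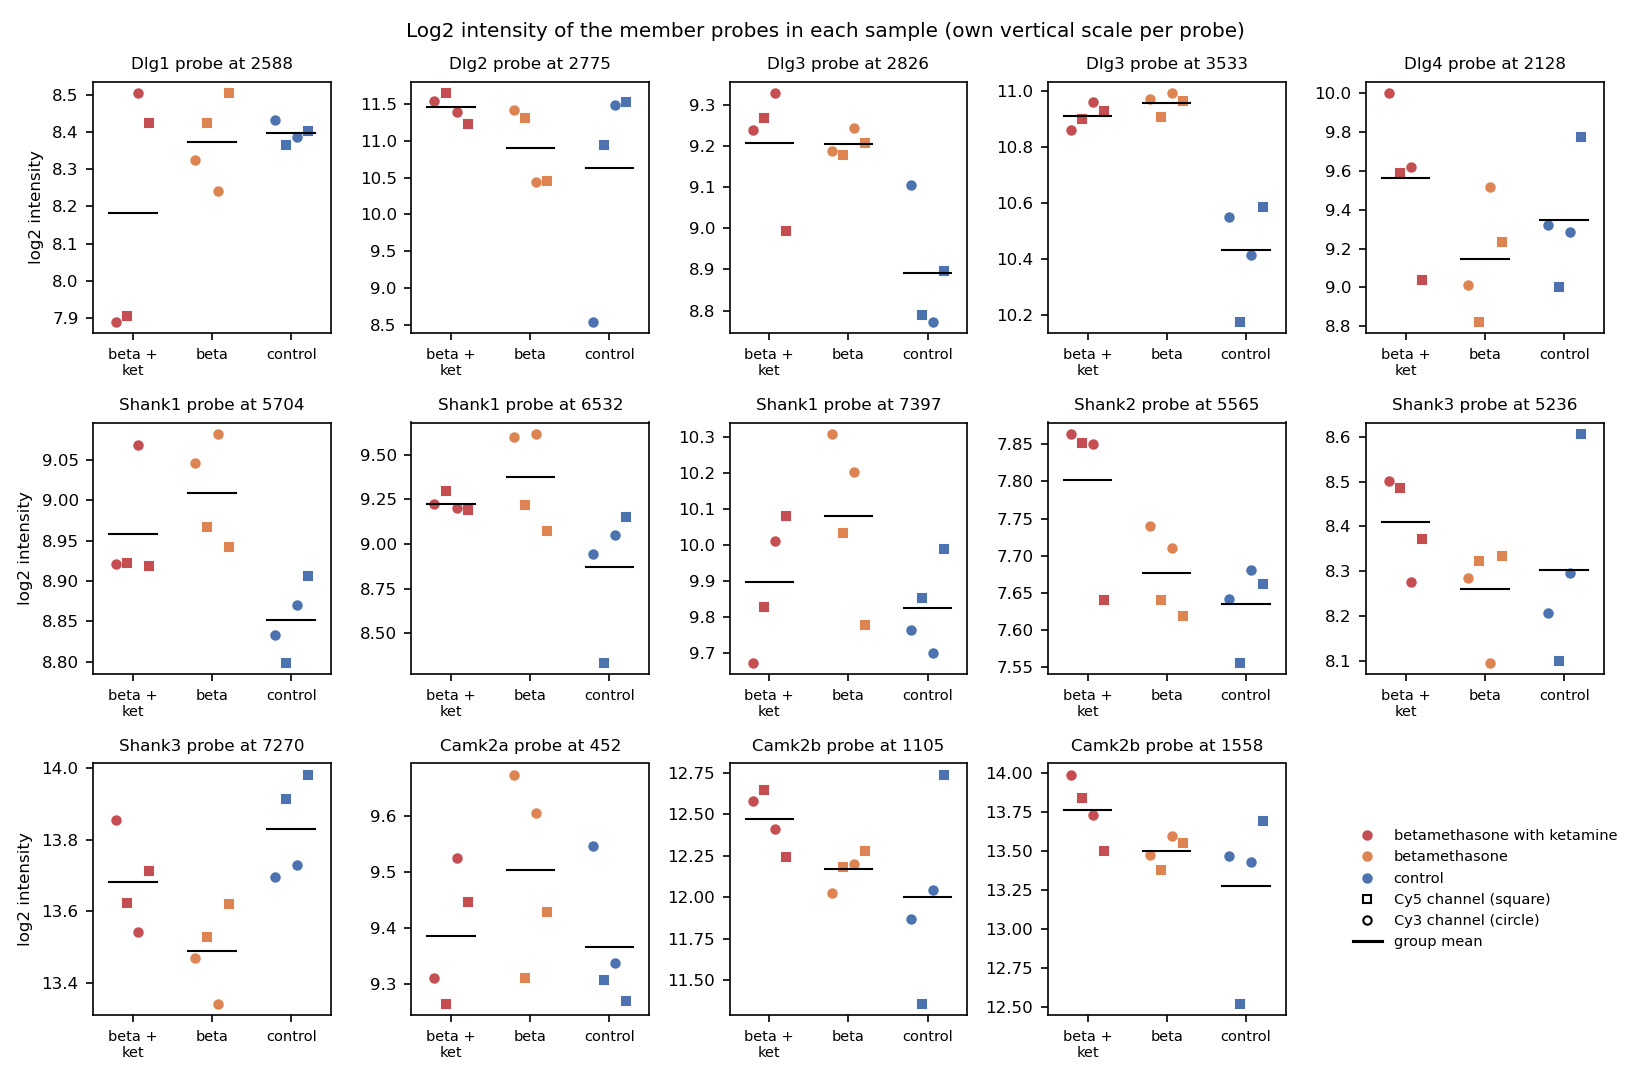
Log2 intensity of each of the 14 probes (vertical axis, own scale per panel) in the 12 samples, grouped on the horizontal axis as betamethasone with ketamine, betamethasone with saline and control. Points are animals (circles Cy3, squares Cy5) in the order of replicates 1 to 4, and bars are group means; the Dlg3 probe at 3533 lies between 10.86 and 10.99 in all 8 betamethasone animals and between 10.18 and 10.59 in the 4 controls.

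Dlg3 encodes SAP102, the scaffold that carries NMDA receptors early in postnatal life. Its probe at 3533 read 10.86, 10.90, 10.96 and 10.93 in the betamethasone-ketamine animals, 10.97, 10.90, 10.99 and 10.96 in the betamethasone-saline animals, and 10.55, 10.18, 10.41 and 10.59 in the controls. All 8 animals of betamethasone-treated dams were above all 4 controls, and the 2 treated groups overlapped each other. The log2 change was 0.53 in betamethasone-saline against control (SE 0.138, 95% interval 0.22 to 0.83, 1.44-fold, adjusted p = 0.186 in limma). It was 0.48 in betamethasone-ketamine against control (interval 0.18 to 0.79, adjusted p = 0.232 in limma). Ketamine against saline differed by -0.047, with an interval of -0.35 to 0.26. The probe passed in both comparisons with control when the array was not kept as a block (adjusted p = 0.0109 and 0.0179 in limma), a setting that called 4.8% and 4% of all probes. It also passed in betamethasone-saline against control when the array of betamethasone-ketamine replicates 1 and 2 was left out (adjusted p = 0.0463), where 2.38% of all probes did. With the scanner software's processed signals the change in betamethasone-ketamine against control was 0.15, after the shift they gave to the median of all probes was taken off. On the array of betamethasone-ketamine replicates 1 and 2 the spots around this probe read a median of 0.12 above their median over the 6 arrays. The part of such local departures in the values was not tested. These comparisons share samples: both comparisons with control use the same 4 control animals, and the betamethasone-saline animals stand in 2 of the 3.

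The Dlg3 probe at 2826 lies upstream on the transcript, in the stretch whose counterpart was used for Dlg2. It read 9.24, 9.27, 9.33 and 8.99 in the betamethasone-ketamine animals, 9.19, 9.18, 9.24 and 9.21 in the betamethasone-saline animals, and 9.10, 8.79, 8.77 and 8.90 in the controls. The betamethasone-saline animals were all above the controls, whereas betamethasone-ketamine replicate 4 lay below control replicate 1. Its log2 change came to 0.31 in betamethasone-saline against control (interval 0.00083 to 0.63, adjusted p = 0.436 in limma) and 0.32 in betamethasone-ketamine against control (interval 0.0038 to 0.63, adjusted p = 0.354). Both Dlg3 probes thus lay higher in both treated groups, neither past the adjusted threshold. On the array of control replicates 3 and 4 the spots around the probe at 2826 read a median of -0.11 from their median over the 6 arrays. On the array of control replicates 1 and 2 this departure was 0.034, and the part of these departures in the changes was not tested.

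With 14 probes and 3 comparisons, groups that did not overlap were seen for 4 probes in betamethasone-saline against control (3 higher and 1 lower), where 17.5% of all tested probes had groups apart (10.4% higher and 7.16% lower). There were 0 such probes in ketamine against saline (4.02% of all, 2.68% higher and 1.33% lower), and 3 in betamethasone-ketamine against control, all higher (15.6% of all, 11.9% higher and 3.66% lower). Besides the Dlg3 probes these were probes of Shank1 and, in the other direction, the second probe of Shank3.

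Dlg4, which encodes PSD-95, the leading scaffold of mature excitatory synapses, read 10.003, 9.59, 9.62 and 9.04 in the betamethasone-ketamine animals, 9.01, 8.82, 9.52 and 9.23 in the betamethasone-saline animals, and 9.32, 9.004, 9.29 and 9.77 in the controls. All 3 groups overlapped, and the lowest betamethasone-ketamine animal, replicate 4, lay among the betamethasone-saline values. Ketamine against saline differed by 0.42 (SE 0.294, interval -0.23 to 1.07, adjusted p = 0.909 in limma), betamethasone-saline against control by -0.20 (interval -0.85 to 0.45) and betamethasone-ketamine against control by 0.22 (interval -0.43 to 0.87). None of these intervals excludes 0, and each is wider than those of Dlg3.

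Dlg2, which encodes PSD-93, a close relative of PSD-95, varied more than any other member. It read 11.54, 11.65, 11.39 and 11.24 in the betamethasone-ketamine animals, 11.42, 11.32, 10.44 and 10.46 in the betamethasone-saline animals, and 8.54, 10.94, 11.49 and 11.54 in the controls. The spread followed the arrays in betamethasone-saline animals: replicates 1 and 2 averaged 11.37 on their array and replicates 3 and 4 averaged 10.45 on theirs. The control arrays averaged 9.74 and 11.52, but the spread lay within 1 array. Control replicates 1 and 2 differed most, at 8.54 and 10.94, although they were read on the same spot in the other dye. The log2 change was 0.83 in betamethasone-ketamine against control (SE 0.772, adjusted p = 0.629 in limma), 0.28 in betamethasone-saline against control and 0.55 in ketamine against saline. Without control replicate 1 the change of betamethasone-saline against control was -0.35 and that of betamethasone-ketamine against control 0.19, so a single control animal set the direction of the one and most of the size of the other. On the array of betamethasone-ketamine replicates 1 and 2 the spots around the probe read a median of 0.12 above their median over the 6 arrays.

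Dlg1 encodes SAP97, which takes part in moving AMPA receptors towards the synapse. It read 7.89, 7.91, 8.50 and 8.42 in the betamethasone-ketamine animals, 8.33, 8.42, 8.24 and 8.50 in the betamethasone-saline animals, and 8.43, 8.37, 8.39 and 8.40 in the controls. Only betamethasone-ketamine replicates 1 and 2, which shared an array, stood apart, at a mean of 7.90 against 8.46 for replicates 3 and 4. The spots around this probe on that array read a median of -0.37 from their median over the 6 arrays, the largest such departure at any of the 14 probes. Ketamine against saline differed by -0.19 (interval -0.55 to 0.16, adjusted p = 0.909 in limma). Without betamethasone-ketamine replicates 1 and 2 the difference was 0.090, and without replicates 3 and 4 it was -0.48 with adjusted p = 0.0148. In that last fit 12% of all probes passed, and 1 of the 14.

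The Shank proteins, the deeper scaffold layer, were read by 6 probes. Shank1 is found mainly in the brain, and its probe at 5704 read 8.92, 8.92, 9.07 and 8.92 in the betamethasone-ketamine animals, 9.05, 8.97, 9.08 and 8.94 in the betamethasone-saline animals, and 8.83, 8.80, 8.87 and 8.91 in the controls. Every animal of a betamethasone-treated dam lay above every control, though the closest pair read 8.92 and 8.91. The fitted change was 0.16 in betamethasone-saline against control (interval -0.031 to 0.34, adjusted p = 0.512 in limma) and 0.11 in betamethasone-ketamine against control (adjusted p = 0.578). On the array of control replicates 3 and 4 the spots around this probe read a median of -0.14 from their median over the 6 arrays. On the array of control replicates 1 and 2 this departure was 0.0058.

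The Shank1 probe at 6532 read 9.22, 9.30, 9.20 and 9.19 in the betamethasone-ketamine animals, 9.60, 9.22, 9.62 and 9.07 in the betamethasone-saline animals, and 8.95, 8.34, 9.05 and 9.15 in the controls. Control replicate 2 was the lowest, and betamethasone-saline replicate 4 lay below control replicate 4. The log2 change was 0.50 in betamethasone-saline against control (SE 0.238, interval -0.021 to 1.03, adjusted p = 0.453 in limma) and 0.36 in betamethasone-ketamine against control (interval -0.17 to 0.88, adjusted p = 0.511). On the array of betamethasone-ketamine replicates 1 and 2 the spots around this probe read a median of 0.21 above their median over the 6 arrays. The third probe, at 7397, ranged from 9.67 to 10.08 in the betamethasone-ketamine animals, from 9.78 to 10.31 in the betamethasone-saline animals and from 9.70 to 9.99 in the controls, all overlapping. Its log2 change was 0.26 in betamethasone-saline against control (adjusted p = 0.684) and 0.072 in betamethasone-ketamine against control (adjusted p = 0.886). The spots around it departed by a median of -0.13 on the array of control replicates 3 and 4, and by 0.026 on that of control replicates 1 and 2. All 3 Shank1 probes had a positive value in both comparisons with control and a negative one, from -0.18 to -0.052, in ketamine against saline. These directions did not all hold: in ketamine against saline the probe at 5704 was 0.14 with processed signals. Under 2 other normalizations it was 0.0376 and 0.0378, after shifts of -0.1184 and 0.303 in the median of all probes were taken off. In betamethasone-ketamine against control the probe at 7397 was -0.0055 without control replicate 3 and -0.075 without betamethasone-ketamine replicates 3 and 4.

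Shank2 was read by 1 dim probe, well above background in 11 of 12 samples. It read 7.86, 7.85, 7.85 and 7.64 in the betamethasone-ketamine animals, 7.74, 7.64, 7.71 and 7.62 in the betamethasone-saline animals, and 7.64, 7.56, 7.68 and 7.66 in the controls. Betamethasone-ketamine replicates 1 to 3 were above every animal of the other groups, and replicate 4 was among them. In log2 units the change was 0.17 in betamethasone-ketamine against control (interval -0.024 to 0.36, adjusted p = 0.408 in limma) and 0.12 in ketamine against saline (interval -0.065 to 0.31, adjusted p = 0.909). On the array of betamethasone-ketamine replicates 1 and 2 the spots around this probe read a median of 0.22 above their median over the 6 arrays.

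Shank3, whose loss of 1 copy in people is linked to Phelan-McDermid syndrome, was read by 2 probes. The brighter one, at 7270, read 13.86, 13.62, 13.54 and 13.71 in the betamethasone-ketamine animals, 13.47, 13.53, 13.34 and 13.62 in the betamethasone-saline animals, and 13.70, 13.91, 13.73 and 13.98 in the controls. Here all betamethasone-saline animals lay below all controls, while the betamethasone-ketamine animals overlapped both. The log2 change was -0.34 in betamethasone-saline against control (SE 0.141, interval -0.65 to -0.029, adjusted p = 0.398 in limma), 0.19 in ketamine against saline (adjusted p = 0.909) and -0.15 in betamethasone-ketamine against control (adjusted p = 0.637). The first of these depended on the normalization: it was -0.030 with processed signals and 0.068 with loess and array medians. Without loess it was 0.043, after a shift of -0.2457 in the median of all probes was taken off. It passed with no array block (adjusted p = 0.0487 in limma, where 4.8% of all probes passed) and without the array of betamethasone-ketamine replicates 1 and 2 (adjusted p = 0.042, where 2.38% passed). The spots around the probe at 7270 departed from their median over the 6 arrays by medians of 0.045 and 0.12 on the control arrays. On the betamethasone-saline arrays they departed by -0.040 and -0.055, and on the betamethasone-ketamine arrays by 0.018 and -0.018. The part of these departures in the change was not tested. The probe at 5236 read 8.28 to 8.50 in betamethasone-ketamine, 8.10 to 8.33 in betamethasone-saline and 8.10 to 8.61 in control animals. Its change in betamethasone-saline against control was -0.042 (interval -0.36 to 0.27).

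**Figure D2:**
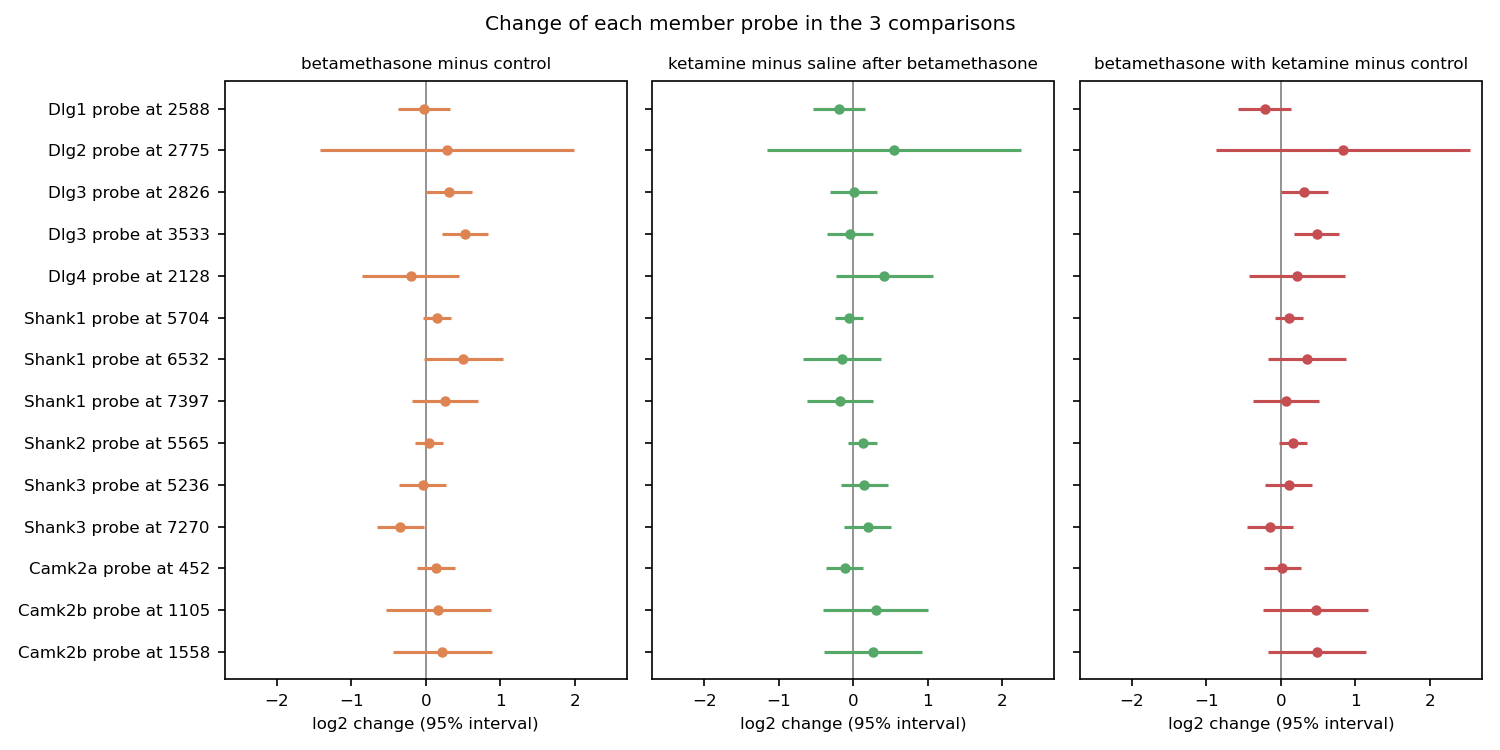
Log2 change of each probe (horizontal axis) with its 95% interval from the limma model (lines), for the 3 comparisons. Only the Dlg3 probe at 3533 has an interval clear of 0 by more than 0.1 in both comparisons with control, and every interval in ketamine against saline includes 0.

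CaMKII was read by 1 probe of its alpha and 2 of its beta gene. Camk2a, the alpha subunit and the one most tied to learning in forebrain excitatory neurons, read 9.31, 9.27, 9.52 and 9.45 in the betamethasone-ketamine animals, 9.67, 9.31, 9.60 and 9.43 in the betamethasone-saline animals, and 9.55, 9.31, 9.34 and 9.27 in the controls. The groups overlapped throughout. Its log2 change came to 0.14 in betamethasone-saline against control (interval -0.11 to 0.39), -0.12 in ketamine against saline (interval -0.37 to 0.14) and 0.021 in betamethasone-ketamine against control (interval -0.23 to 0.27), with adjusted p between 0.705 and 0.945 in limma.

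Camk2b encodes the beta subunit, which binds actin and anchors the holoenzyme in spines. Its probe at 1558 read 13.98, 13.84, 13.73 and 13.50 in the betamethasone-ketamine animals, 13.48, 13.38, 13.59 and 13.55 in the betamethasone-saline animals, and 13.47, 12.52, 13.43 and 13.69 in the controls. Its probe at 1105 read 12.58, 12.65, 12.41 and 12.24 in the betamethasone-ketamine animals, 12.02, 12.18, 12.20 and 12.28 in the betamethasone-saline animals, and 11.87, 11.36, 12.04 and 12.74 in the controls. On both probes control replicate 2 was the lowest of the 12 animals, and at least 1 control lay above the lowest betamethasone-ketamine animal. The log2 changes of the 2 probes were 0.49 and 0.47 in betamethasone-ketamine against control (adjusted p = 0.477 and 0.518 in limma), 0.26 and 0.30 in ketamine against saline (adjusted p = 0.918 for both), and 0.22 and 0.17 in betamethasone-saline against control (adjusted p = 0.842 and 0.899). Their intervals reached as far as 1.15 and 1.17 upwards in betamethasone-ketamine against control and included 0. On the array of betamethasone-ketamine replicates 1 and 2 the spots around the probes read medians of 0.12 and 0.14 above their median over the 6 arrays.

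Control replicate 2 was the lowest of the 12 samples on 6 of the 14 probes, among them both Camk2b probes, the Dlg3 probe at 3533 and the Shank1 probe at 6532. Over the 20850 tested probes with a value in every sample it was the lowest on 24.1%, the highest such share of any sample. Without it, the Dlg3 probe at 3533 differed by 0.43 in betamethasone-saline against control and by 0.39 in betamethasone-ketamine against control. The Camk2b probes at 1558 and 1105 then turned to -0.010 and -0.031 in betamethasone-saline against control, and were 0.25 and 0.27 in betamethasone-ketamine against control. The Shank1 probe at 6532 was 0.37 and 0.22 in the same 2 comparisons.

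Where a gene had more than 1 probe, the probes can be set against each other across the 12 samples. With group means taken out, the values of the 2 Camk2b probes had a Pearson correlation of 0.858 and those of the Dlg3 probes 0.453. The Shank1 pairs ranged from 0.383 to 0.629, and the Shank3 pair had 0.594. These are descriptions over 12 samples that share 6 arrays, so that any effect of an array or a channel enters both probes of a pair. For Camk2b, control replicate 2 is the lowest point on both axes.

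**Figure D3:**
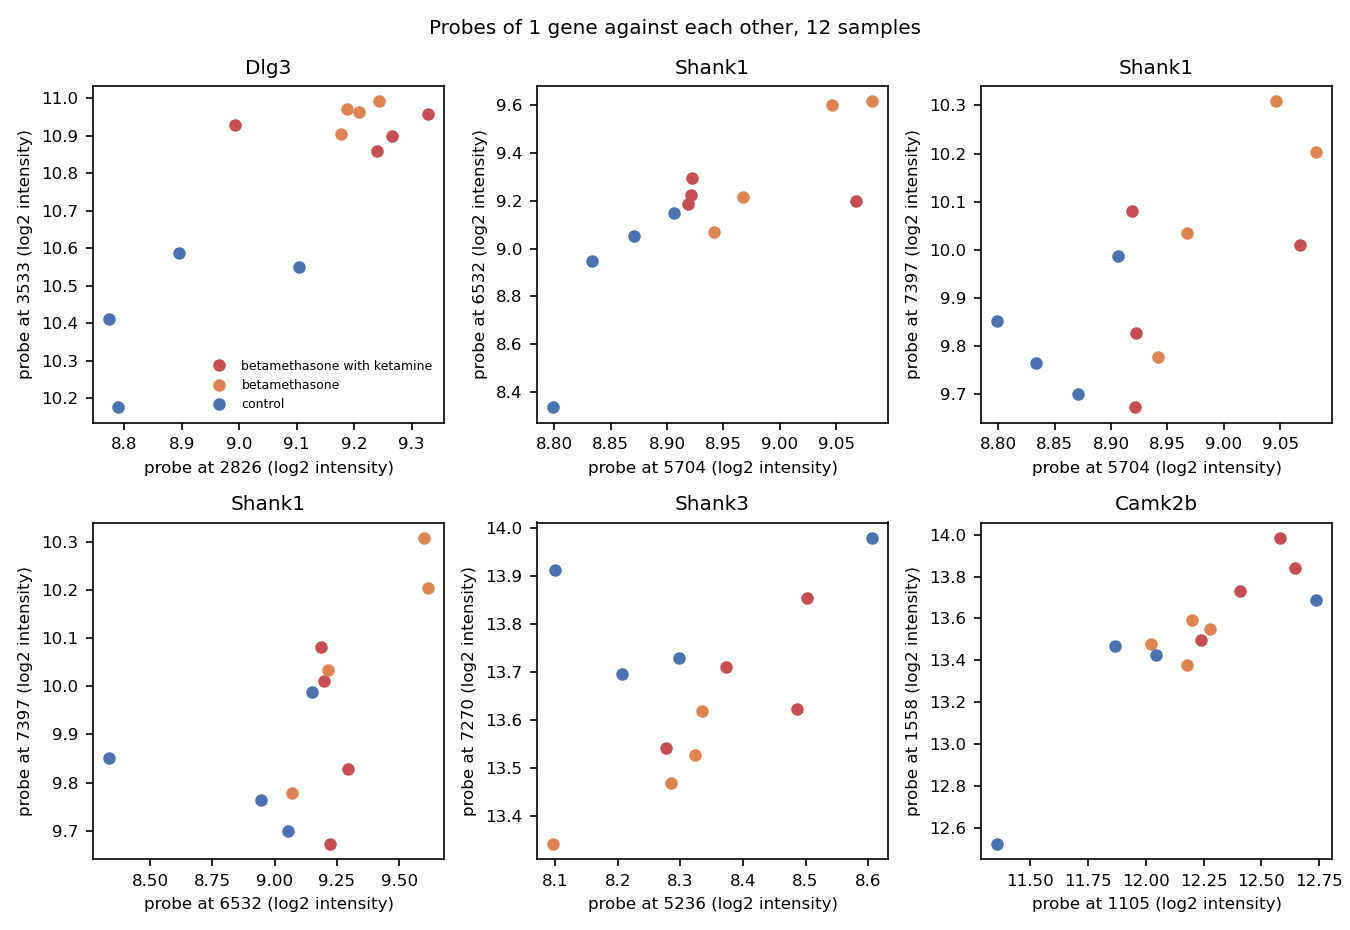
Log2 intensity of 1 probe of a gene (horizontal axis) against another probe of the same gene (vertical axis) for Dlg3, Shank1, Shank3 and Camk2b, with 1 point per animal coloured by group. On Dlg3 the 4 controls lie lowest on the vertical axis, at or below 10.59 on the probe at 3533. On the horizontal axis control replicate 1, at 9.10, lies to the right of betamethasone-ketamine replicate 4, at 8.99. On Shank3 the 4 betamethasone-saline animals lie at or below 13.62 on the probe at 7270.

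Taken over all 14 probes, the median log2 change was 0.16 in betamethasone-saline against control, with 10 probes higher and 4 lower, beside a median of 0.027 over all tested probes, of which 56.3% were higher. In ketamine against saline it was 0.064, with 8 higher and 6 lower, beside 0.048 and 63.2% over all. In betamethasone-ketamine against control it was 0.19, with 12 higher and 2 lower, beside 0.072 and 64% over all. The first median lay between -0.0074 and 0.26 when samples or arrays were left out in turn, the lowest of these without the array of control replicates 1 and 2.

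A wider list of 35 postsynaptic genes that are not among the 9 was described in the same way, with the brightest tested probe of each gene. Of these, 33 were tested, Baiap2 and Tanc1 being too dim. None passed the adjusted threshold in any comparison. In betamethasone-saline against control 17 were higher and 16 lower, with a median of 0.054. Lrrc7, which encodes the scaffold densin, had the smallest p, at 11.79 ± 0.05 in betamethasone-saline and 12.17 ± 0.15 in control animals (SD, n = 4 each), a log2 change of -0.39 (adjusted p = 0.241 in limma). Camk2n1, an inhibitor of CaMKII, averaged 14.80 ± 0.18 in betamethasone-saline and 15.69 ± 0.33 in control animals (SD, n = 4 each), a change of -0.89 (SE 0.274, adjusted p = 0.246). Tanc2, another scaffold, followed at -0.47 (adjusted p = 0.424). Lrrc7 and Camk2n1 were among the genes of this list whose groups did not overlap, 4 higher and 5 lower. Over all tested probes 17.5% had groups apart (10.4% higher and 7.16% lower).

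In ketamine against saline 21 of the 33 genes were higher and 12 lower, with a median of 0.087. Lrrc7 averaged 12.12 ± 0.18 in betamethasone-ketamine and 11.79 ± 0.05 in betamethasone-saline animals (SD, n = 4 each), a change of 0.34 with groups apart (adjusted p = 0.909 in limma). In this list 3 genes were apart higher and 2 lower, beside 4.02% of all tested probes with groups apart (2.68% higher and 1.33% lower). Nlgn2, the neuroligin of inhibitory synapses, differed by 0.55, and Akap5, which anchors protein kinase A at the postsynaptic density, by 0.52 (adjusted p = 0.909 for both). In betamethasone-ketamine against control 20 were higher and 13 lower, with a median of 0.053. Groups were apart for 1 gene higher and 1 lower, beside 15.6% of all tested probes (11.9% higher and 3.66% lower). There the smallest p belonged to Camk2n1 (-0.52, adjusted p = 0.415), Dlgap4 (0.45, adjusted p = 0.428), which encodes a guanylate kinase-associated protein that bridges Dlg and Shank proteins, and Homer2 (0.46, adjusted p = 0.461), which binds Shank proteins.

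Markers of other cells stood beside these values. All 6 oligodendrocyte markers (Mbp, Mag, Mog, Mobp, Cnp and Cldn11) had a negative value in betamethasone-saline against control, with a median of -0.70, and 5 of 6 did in betamethasone-ketamine against control, with a median of -0.59. Their mean log2 level was 10.25 to 11.05 in betamethasone-ketamine, 10.01 to 10.81 in betamethasone-saline and 10.745 to 11.51 in control animals, none past the adjusted threshold. The 4 excitatory neuron markers had medians of 0.043, 0.0049 and 0.038 in betamethasone-saline against control, ketamine against saline, and betamethasone-ketamine against control. The 6 inhibitory neuron markers had medians of 0.055, 0.13 and 0.13 in the same order. Astrocyte markers (5) had medians of -0.15, 0.20 and 0.084, microglial markers (5) 0.017, 0.15 and 0.25, and endothelial markers (4) 0.13, 0.17 and 0.29. Of tissue next to the prefrontal cortex, 3 of 5 striatal markers were measured, with medians of -0.13, -0.045 and -0.063, and 2 of 4 choroid plexus markers, with -0.54, 0.11 and -0.43. What part these cells had in the values of the 14 probes was not tested.

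**Figure D4:**
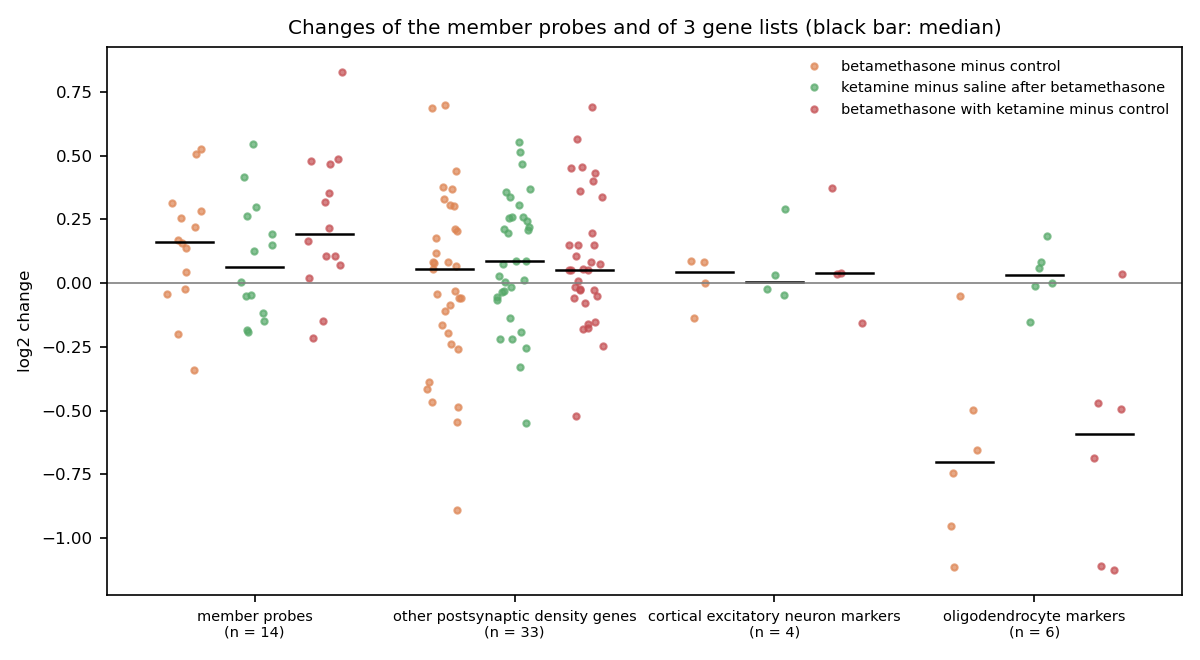
Log2 change (vertical axis) of the 14 probes, of 33 other postsynaptic genes, of 4 excitatory neuron markers and of 6 oligodendrocyte markers, each in the 3 comparisons (colours), with black bars at the medians. The medians of the 14 probes are 0.16, 0.064 and 0.19, and those of the oligodendrocyte markers -0.70, 0.031 and -0.59, in betamethasone against control, ketamine against saline and betamethasone with ketamine against control.

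For Dlg4 and Camk2a the genes with the most similar pattern were sought among 11239 named genes, by Pearson correlation of log2 intensity over the 12 samples after group means were taken out. For Dlg4 these were Afg3l1 (0.886), Smg9 (0.886) and Aars2 (0.881). For Camk2a they were Chst1 (0.950), Cfp (0.941) and Mov10 (0.939). The samples share 6 arrays, and the values describe these 12 samples only.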

How the data were processed

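Total RNA of 12 animals was measured on 6 Agilent 2-colour arrays, each channel holding its own animal. The deposited scanner files hold mean and median spot intensity and local background in scanner units, from Feature Extraction 11.5.1.1 (slide A) and 11.0.1.1 (slide B), per the file headers; the submitters' processing notes name 10.7.3.1. The deposited value table holds a ratio per spot, background-subtracted median signal over the column median, and its columns for control replicates 1 and 2 hold what the scanner files give for control replicates 3 and 4, and vice versa. It served as an alternative. Mean intensity was corrected by normexp (offset 50), normalized by loess within and Aquantile between arrays, and the deposited intensity values were so turned into log2 values per channel. Outlier spots were left out, and a probe was tested if 3 or more animals of any group had it well above background. Groups were compared in limma (3.58.1, under R 4.3.3), with all 12 samples, a dye term and the array as a random block (correlation 0.5549), with Benjamini-Hochberg adjustment over 21533 probes. The model was tested on simulated data. Same-numbered samples did not deviate together (correlations -0.0635 to 0.0964), so no pairing by number was seen. Nothing in the labels says that animals of a group came from separate litters, so p-values measure the spread between these samples. All probes of the 9 genes were described; of the wider postsynaptic list, those past the threshold and otherwise the 3 of smallest p were named. The members and lists were chosen with earlier results of these data known. Some marker genes are not reported here and were left out of their lists. Alternatives covered the signal type, background, normalization, filter, array and replicate blocks, samples in the fit and each sample or array left out.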

Additional observations from a re-analysis of the deposited data

Results flagged for a closer look

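Each of the 14 probes was examined in each group of 4 animals for 1 value far from the other 3 (Dixon's test at the 95% level), in 42 sets in all, and 2 were picked out; chance picks about 1 in 20 such sets. Betamethasone-ketamine replicate 3 was the highest of its group on the Shank1 probe at 5704, at 9.07, while the other 3 read 8.92. Betamethasone-ketamine replicate 4 was the lowest of its group on the Shank2 probe at 5565, at 7.64, while the other 3 read 7.85 to 7.86. With betamethasone-ketamine replicate 3 or replicate 4 left out, 0 of the 14 probes passed in any comparison, where at most 0.175% of all probes did.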

How the results depend on the processing

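The 14 probes' values were recomputed under 13 alternatives and with each sample and each array left out. Where an alternative moved the median of all probes by over 0.1, that shift was taken off the values. So adjusted, both Dlg3 probes and all 3 Shank1 probes stayed positive in betamethasone-saline against control in every setting that measured them. With the deposited value table centred by its column medians the shift was -1.13, and their values there were negative before it was taken off. The values of the Dlg3 probe at 3533 ran from 0.46 to 0.80 under the alternatives, and from 0.43 to 0.61 with samples or arrays left out. In betamethasone-ketamine against control the same probe ran from 0.15 to 0.52 and from 0.39 to 0.56, and in ketamine against saline from -0.35 to -0.0044 and from -0.079 to -0.014. Its call did not hold still. With no array block, 2 of the 14 probes passed in betamethasone-saline against control, Dlg3 at 3533 (0.53, adjusted p = 0.0109 in limma) and Shank3 at 7270 (-0.34, adjusted p = 0.0487), and 1 in betamethasone-ketamine against control, Dlg3 at 3533 (0.48, adjusted p = 0.0179), where 4.8% and 4% of all probes passed. The same 2 passed without betamethasone-ketamine replicates 1 and 2 (adjusted p = 0.0463 and 0.042), animals of neither group compared, with 2.38% of all probes. Dlg1 alone passed in ketamine against saline and in betamethasone-ketamine against control without betamethasone-ketamine replicates 3 and 4 (adjusted p = 0.0148 and 0.0104), with 12% and 16.2% of all probes. With samples or arrays left out, the member probes called thus numbered 0 to 2, 0 to 1 and 0 to 1 in betamethasone-saline against control, ketamine against saline, and betamethasone-ketamine against control. The calls over all probes, in the same order, numbered 3 to 516, 0 to 2600 and 3 to 3523.

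The deposited value table, centred by its column medians, moved the median of all probes by -1.13 in betamethasone-saline against control and by -1.09 in betamethasone-ketamine against control. It called 15171 and 14947 of all probes and 11 and 12 of the 13 member probes it allowed to be tested, before the shift was taken off, and 1 of all probes in ketamine against saline. Centred instead on probes with a value in every sample, an alternative chosen after seeing the data, it called 15 and 5 of all probes in the comparisons with control and none of those 13. Betamethasone-saline against control had 85 calls over all probes with processed signals, 0 with loess and array medians, 0 without loess, 88 with no filter on dim probes, 29 with all samples well above background, 1033 with no array block, 3 with array means, 4 with the replicate block and 215 with only the groups compared. Ketamine against saline had 4 with processed signals, 1 with no filter and 1 with no array block. Betamethasone-ketamine against control had 157 with processed signals, 0 with loess and array medians, 0 without loess, 42 with no filter, 29 with departing areas masked, 862 with no array block, 1 with array means, 10 with the replicate block and 2 with only the groups compared. Under the replicate block none of the 14 probes passed.

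Values that turned round are likewise given with any shift of over 0.1 in the median of all probes taken off. In betamethasone-saline against control, Shank3 at 5236 was 0.23 with processed signals, Shank2 was -0.51 with loess and array medians and -0.53 without loess, and Shank3 at 7270 was 0.068 and 0.043 under the same pair. In ketamine against saline, processed signals gave 0.14 for Shank1 at 5704 and 0.065 for Camk2a. Loess with array medians, and normexp without loess, gave 0.32 and 0.32 for Dlg1, -0.0093 and -0.0090 for Dlg3 at 2826, 0.0376 and 0.0378 for Shank1 at 5704, -0.26 and -0.26 for Shank3 at 7270, -0.11 and -0.11 for Camk2b at 1105, and -0.18 and -0.18 for Camk2b at 1558. The deposited table gave 0.14 for Dlg1 and, centred the other way, -0.013 for Dlg3 at 2826. In betamethasone-ketamine against control, Dlg1 was 0.013 with loess and array medians and 0.064 without loess. Camk2a there was -0.0073 with loess and array medians, -0.040 with the deposited table and -0.028 with it centred the other way. The cause was not tested.

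Leaving out samples or arrays turned round values in betamethasone-saline against control for Dlg1 (-0.080 to 0.035), Dlg2 (-0.61 to 1.17), Dlg4 (-0.43 to 0.030), Shank3 at 5236 (-0.19 to 0.11), Camk2b at 1105 (-0.22 to 0.56) and Camk2b at 1558 (-0.059 to 0.50). In ketamine against saline it did so for Dlg1 (-0.48 to 0.090) and Dlg3 at 2826 (-0.050 to 0.072). In betamethasone-ketamine against control it did so for Dlg1 (-0.50 to 0.067), Dlg2 (-0.058 to 1.72), Dlg4 (-0.019 to 0.45), Shank1 at 7397 (-0.075 to 0.22), Shank3 at 5236 (-0.043 to 0.26) and Camk2a (-0.077 to 0.12). Slide could not be used as a block, since slide A held the controls alone. For ketamine against saline, the fit of only the groups compared used slide B alone.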
